A study of Mus musculus with 4 samples.

Results

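The miR-200 family is the set of 5 related mouse miRNA hairpins Mir200b, Mir200a, Mir429, Mir200c and Mir141, each of which gives a 5p and a 3p mature strand. Its 10 mature miRNAs, from mmu-miR-200a-3p to mmu-miR-429-5p, were found by name among the 1167 miRNAs of the authors' deposited table, and all 10 were listed. The tissue was the main olfactory epithelium, the lining at the back of the nose that holds olfactory sensory neurons, supporting cells and their progenitors. 2 small RNA libraries came from AC3-/- mice and 2 from wild type mice, all of them male C57BL/6 animals 3 months of age. AC3-/- mice lack adenylyl cyclase 3, which produces the cAMP that odorant receptors signal with in the sensory neurons. The labels do not say whether different animals gave the 2 libraries of a genotype, so the p-values rest on a spread between libraries that may be technical. The comparison asks how the miRNA profile differs when the enzyme is absent. The 2 libraries together held between 19244636 and 20015672 reads in AC3-/- and between 21179139 and 23080724 reads in wild type.

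miRNAs are short RNAs that guide Argonaute proteins to messenger RNAs, mostly by pairing of bases 2 to 8, the seed. The miR-200 family is known from epithelia, where it represses Zeb1 and Zeb2, transcription factors that in turn repress the miR-200 genes. In mouse and zebrafish the family is also known to be abundant in olfactory tissue and to be needed for olfactory progenitors to become neurons. The libraries were made from whole tissue of adult mice and measured no mRNA, so neurogenesis, Zeb1, Zeb2 and the loss of Adcy3 (the gene of adenylyl cyclase 3) could not be checked. In such bulk samples, fewer cells of a type and less of a miRNA per cell cannot be told apart.

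The 3p strands are shown because they held nearly all of the family's reads and fall into 2 seed groups that cut across the genomic loci. RefSeq sequences (GRCm38.p6) were matched for 10 of 10 members and are written 5′ to 3′ with the seed in capitals. The first group has the seed of miR-200b, miR-200c and miR-429.
miR-200b-3p: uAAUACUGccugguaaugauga
miR-200c-3p: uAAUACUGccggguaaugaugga
miR-429-3p: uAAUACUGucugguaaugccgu
The second group has the seed of miR-200a and miR-141.
miR-200a-3p: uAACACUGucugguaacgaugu
miR-141-3p: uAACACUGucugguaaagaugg
Counted from 1 at the 5′ end, miR-200b-3p and miR-200a-3p differed by U4C, C9U, U17C and A22U, of which U4C lies in the seed. miR-200b-3p and miR-200c-3p differed by U11G and A22G over 22 aligned bases, and miR-200a-3p and miR-141-3p by C17A and U22G. Reads with errors or trimmed ends could therefore be divided between such pairs in a way that the deposited means do not show. No other mature mouse miRNA of the RefSeq table had either seed.

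The 5p strands are shown because most of them allowed values for single libraries, as miR-141-3p of the 3p strands also did. They share less of their sequence.
miR-200b-5p: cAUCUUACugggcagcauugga
miR-200a-5p: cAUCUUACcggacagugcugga
miR-200c-5p: cGUCUUACccagcaguguuugg
miR-141-5p: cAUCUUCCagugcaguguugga
miR-429-5p: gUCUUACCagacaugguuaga
The seeds of miR-200b-5p and miR-200a-5p were identical, and the other 5p strands each had a seed of their own. All 5 3p strands began with U and none of the 5p strands did, against 43.3% of the 947 miRNAs of the table that had a RefSeq sequence. A hairpin from each locus shows how the strands lie, with the 5p strand and then the 3p strand in capitals.
Mir200b: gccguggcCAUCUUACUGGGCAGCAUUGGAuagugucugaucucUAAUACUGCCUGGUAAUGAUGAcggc
Mir200c: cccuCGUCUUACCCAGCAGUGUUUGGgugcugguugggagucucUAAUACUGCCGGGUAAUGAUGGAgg

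Mir200b, Mir200a and Mir429 lie within 1846 bases on the minus strand of chromosome 4 (GRCm38), at chr4:156055681-156055750, chr4:156054896-156054985 and chr4:156053905-156053987. In GENCODE M21 the 3 hairpins lie in an intron of Ttll10 and inside the noncoding transcript Gm13648, of which an exon holds Mir429 and an intron the other two. Mir200c and Mir141 lie within 477 bases on the minus strand of chromosome 6, at chr6:124718322-124718390 and chr6:124717914-124717985. Both are in an intron of Gm15884, a noncoding antisense transcript, and an exon of the unclassified Gm29008 covers a part of Mir141. The window around the annotated start of Gm13648 is shown because the summed chromosome 4 members had the lower ratio of AC3-/- to wild type, with matches to CACCTG, a motif that Zeb proteins are known to bind, in capitals (chr4:156059753-156060052, minus strand, RefSeq, GRCm38.p6).
Gm13648: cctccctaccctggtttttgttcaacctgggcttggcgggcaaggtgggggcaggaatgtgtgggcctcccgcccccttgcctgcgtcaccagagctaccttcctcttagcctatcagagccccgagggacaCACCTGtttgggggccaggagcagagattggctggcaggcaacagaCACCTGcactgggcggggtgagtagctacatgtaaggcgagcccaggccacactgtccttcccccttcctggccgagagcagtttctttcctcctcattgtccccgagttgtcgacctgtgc
The 2 matches begin 118 and 72 bases before the start. Both strands were searched (CACCTG and its complement CAGGTG), and 20.2% of 32851 promoter windows of the same 300 bases held at least 1 match and 2.88% at least 2. No such window was available for Gm15884, so the chromosome 6 locus was not searched. The matches can therefore not be called particular to chromosome 4. A match is a description of the letters and no evidence of binding here.

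The family made up a large share of all miRNA reads in this tissue, and its summed level was lower in AC3-/-. Summed over the 10 members, the authors' mean normalised read counts came to 1013888.9 in AC3-/- and 2746825.3 in wild type, 2.71-fold lower in AC3-/- (log2 ratio -1.44). Over the 5 members with library values in both genotypes, which hold few of these reads, the summed log2 ratio was -0.63, and without wild-type library b it was 0.17, the opposite direction. The family was 11.6% of the summed AC3-/- profile and 22.3% of the summed wild-type profile. 3p strands held 97.4% of the family's summed level in AC3-/- and 98.5% in wild type. Because adaptors join some small RNAs more readily than others, a level is not a number of molecules, and ratios between members are compared here between genotypes only.

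mmu-miR-200b-3p was the most abundant member. Its mean was 399795.6 in AC3-/- and 1351262.2 in wild type, which ranked it 5 in AC3-/- and 1 in wild type among 1167 miRNAs, and the AC3-/- mean was 3.38-fold lower than the wild-type mean. In AC3-/- its neighbours in rank were miR-30a-5p, with a mean of 422172.0, and miR-200a-3p. In wild type the miRNA below it was miR-183-5p of the sensory-organ cluster, with a mean of 1304446.9. mmu-miR-200a-3p averaged 398861.1 in AC3-/- and 997135.2 in wild type, 2.5-fold lower in AC3-/-. The mean of mmu-miR-200c-3p was 101896.2 in AC3-/- and 180547.8 in wild type. That of mmu-miR-429-3p was 66250.0 in AC3-/- and 146609.0 in wild type, between those of miR-200c-3p and miR-141-3p. mmu-miR-141-3p was the least abundant 3p strand, with 20561.4 in AC3-/- and 29600.4 in wild type, 1.44-fold lower in AC3-/-. The order of the 10 levels was the same in the 2 genotypes. In AC3-/-, though, miR-200b-3p and miR-200a-3p were nearly equal and have no library values, so their order there is uncertain.

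**Figure D1:**
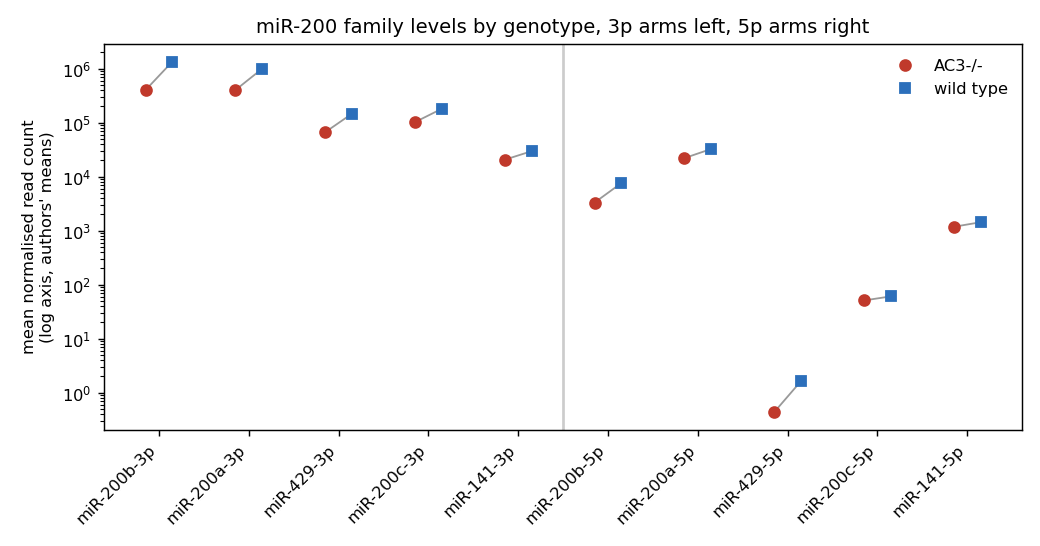
Mean normalised read count (log axis) of each of the 10 members in AC3-/- (circles, left of each pair) and wild type (squares, right), each point the authors' mean of 2 libraries with no error bar. The AC3-/- point lies below the wild-type point for every member, from 399795.6 against 1351262.2 for miR-200b-3p to 0.436 against 1.65 for miR-429-5p.

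The 5p strands were scarcer. miR-200a-5p averaged 21993.0 in AC3-/- and 32547.3 in wild type, above miR-141-3p in both genotypes. miR-200b-5p averaged 3301.7 in AC3-/- and 7627.9 in wild type. The mean of miR-141-5p was 1178.4 in AC3-/-, against 1433.1 for wild type. miR-200c-5p averaged 51.0 in AC3-/- and 60.7 in wild type. miR-429-5p was near the floor, with 1 read in the 2 AC3-/- libraries together and 3 in the 2 wild-type libraries. That is a ratio of 0.267 with an exact 95% interval of 0.00508 to 3.32, which covers counting error only, so it shows no direction.

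No member passed the adjusted p of 0.05 in the authors' deposited table, where 1 of all 1167 miRNAs did (0.0857%). 2 of the 10, miR-200b-3p and miR-200a-3p, had an unadjusted p under 0.05, both lower in AC3-/-, against 1.97% of all miRNAs. The authors' deposited table marks these 2 members as significant, with 41 of all 1167 miRNAs so marked (3.51%), which are the 41 with an unadjusted p under 0.05. The authors' deposited table gives miR-200b-3p a log2 fold change of -1.19 with p = 0.01151 and an adjusted p of 0.9395. In the authors' deposited table miR-200a-3p has a log2 fold change of -0.86 with p = 0.02424 and an adjusted p of 0.9395. The next smallest p in the authors' deposited table was that of miR-200b-5p, with a log2 fold change of -0.85 and p = 0.06494. The deposited log2 fold changes of 9 members were 60.4 to 78.7% of the log2 ratio of the means, and that of miR-429-5p was 15.6% of it. The sources used here do not state whether the p-values come from Wald tests. If read so, the standard errors of the members' deposited fold changes lie between 0.379 and 0.493 on the log2 scale. The lowest is that of miR-429-5p, which had few reads. It belongs to the deposited fold change and does not measure how well the log2 ratio of the means is known.

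All 10 deposited log2 fold changes lay below 0, against 50.5% of all miRNAs. Abundant miRNAs lay below 0 more often, 65.8% of the 155 that averaged 1000 or more, a level that 8 members reached. The members' median in the authors' deposited table was -0.54, the median of all miRNAs -0.01 and that of the 155 abundant ones -0.11. The members share transcripts and hairpins and are not independent of each other, and members and list were chosen with results known, so no test was made of the list.

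**Figure D2:**
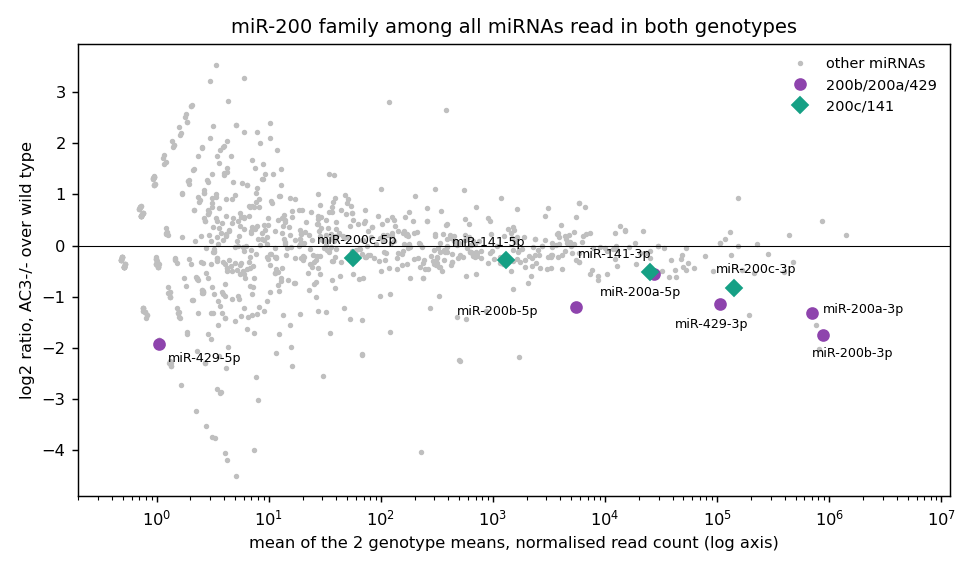
Log2 ratio of the authors' means, AC3-/- over wild type, against the mean of both genotypes (log axis) for each miRNA read in both; grey points are 872 other miRNAs, circles the chromosome 4 members and diamonds the chromosome 6 members. The 10 members lie below 0, with miR-200b-3p at -1.76 and miR-200c-5p at -0.25.

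The size of the difference, and for 2 members its direction, depended on how the genotypes were scaled. The summed means of all miRNAs were 8739148.2 in AC3-/- and 12320877.3 in wild type. Without the miR-200 family and the miR-183 cluster, 2 groups chosen with results known, the totals were 6906518.0 in AC3-/- and 6857378.9 in wild type. These are net sums, in which higher and lower miRNAs can offset each other, so they do not show that the other miRNAs were unchanged. Scaling both genotypes to the same total moves every log2 ratio up by 0.50, so that the median of all miRNAs is 0.44 in place of -0.06. On that scale the family's summed log2 ratio was -0.94, that of miR-200b-3p -1.26 and that of miR-200a-3p -0.83. miR-200a-5p and miR-141-3p were then at -0.07 and -0.03, and miR-141-5p and miR-200c-5p at 0.21 and 0.24, the opposite direction. Rescaling moves the median of all miRNAs by as much as the members, so it leaves their distance from it as it was.

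As a sum, the chromosome 4 members differed more between the genotypes than the chromosome 6 members did. Single members crossed this order, as miR-200a-5p of chromosome 4 had a log2 ratio of -0.57 and miR-200c-3p of chromosome 6 one of -0.83. Summed over 6 miRNAs, the chromosome 4 locus came to 890201.9 in AC3-/- and 2535183.3 in wild type (log2 ratio -1.51). The 4 miRNAs of the chromosome 6 locus came to 123687.0 in AC3-/- and 211642.0 in wild type (log2 ratio -0.78). The difference of the 2 log2 ratios was -0.74, and it does not depend on the scaling between genotypes. Put as a ratio, the chromosome 4 locus was read 7.20 times as often as the chromosome 6 locus in AC3-/- and 11.98 times as often in wild type. With 3p strands only the difference of the log2 ratios was -0.75 and with 5p strands only -0.39. Without miR-200b-3p it was -0.50.

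**Figure D3:**
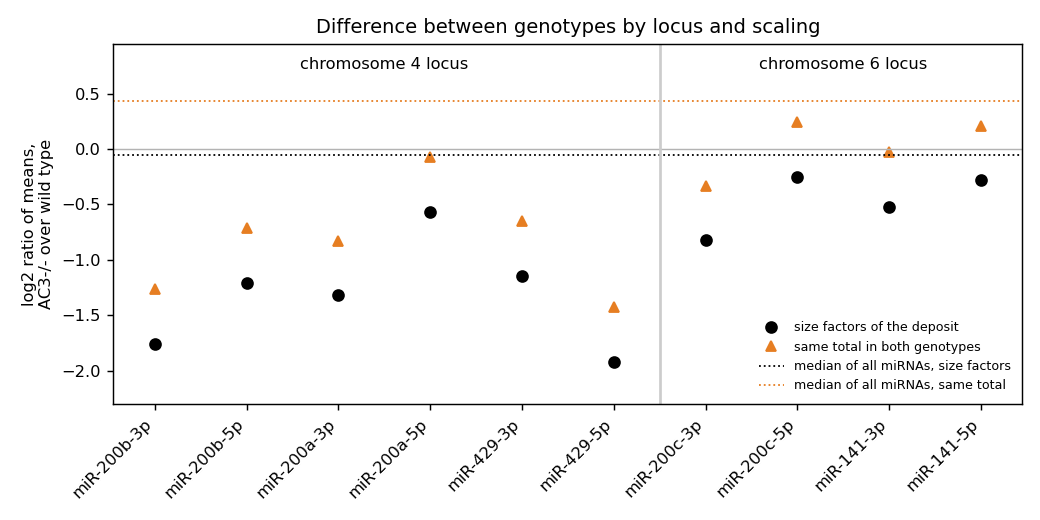
Log2 ratio of the authors' means, AC3-/- over wild type, for each member, with the size factors of the deposit (circles) and scaled to the same total (triangles); dotted lines are the medians of all miRNAs on each scale. Chromosome 4 members lie left of the grey line and chromosome 6 members right of it, where miR-141-5p and miR-200c-5p cross 0 with the scaling.

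Members of 1 locus also differed from each other. On chromosome 4 the level of miR-200a-3p over that of miR-200b-3p was 0.998 in AC3-/- and 0.738 in wild type. That of miR-429-3p over miR-200b-3p was 0.166 in AC3-/- and 0.108 in wild type. On chromosome 6 the level of miR-141-3p over miR-200c-3p was 0.202 in AC3-/- and 0.164 in wild type. The level of miR-200a-3p over miR-429-3p was 6.02 in AC3-/- and 6.80 in wild type. On chromosome 4 the ratios of miR-200a-3p to the strands of the other seed thus went in opposite directions. Summed by seed, the miR-200b, miR-200c and miR-429 group came to 567941.8 in AC3-/- and 1678419.0 in wild type. The miR-200a and miR-141 group came to 419422.5 in AC3-/- and 1026735.6 in wild type, and the 2 log2 ratios, -1.56 and -1.29, differed by 0.27. Without miR-200b-3p the difference had the opposite sign, -0.33, so its direction rests on that miRNA. No library values exist for 4 of these 5 strands, so neither this difference nor the ratios above could be set against the spread between libraries.

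Values of single libraries were worked back from the deposited means for 5 members in both genotypes, and they show that wild-type library b was the high one for the 4 of these with more than a few reads. A deposited mean is the average of 2 read counts, each divided by its library's size factor, and for these members 1 pair of whole read counts gives it. The letters a and b name the libraries in order of their size factors and carry no replicate number. The normalised count of miR-200b-5p was 3296.4 in AC3-/- library a and 3306.9 in AC3-/- library b, against 3783.8 in wild-type library a and 11471.9 in wild-type library b. These came from 3784 and 3633 reads in AC3-/- and 3561 and 9810 reads in wild type. Its AC3-/- values were nearly equal and both lay below the wild-type values, which happened in 17% of the 448 miRNAs that could be split by library and averaged 10 or more. The mean was 3301.7 ± 7.4 in AC3-/- and 7627.9 ± 5436.3 in wild type (SD, n = 2 each).

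The AC3-/- libraries held 18849.0 (a) and 22273.8 (b) normalised reads of miR-141-3p, and the wild-type libraries 17615.4 (a) and 41585.4 (b). Of miR-141-5p the AC3-/- libraries held 1069.8 and 1287.1, and the wild-type libraries 815 and 2051.1. Of miR-200c-5p the AC3-/- libraries held 59.2 and 42.8, and the wild-type libraries 36.1 and 85.4. For each of these 3 chromosome 6 miRNAs wild-type library a was the lowest of the 4 and library b the highest, so the genotypes overlapped. miR-200a-5p stood at 24657.0 and 19329.1 in the AC3-/- libraries. Its wild-type mean fits 2 pairs, 20301.6 and 44793.1 or 4553.1 and 60541.6 in libraries a and b, and with either one library b was the highest of the 4. In the order of levels, miR-200a-5p and miR-141-3p are neighbours whose library values overlapped in both genotypes, while miR-200b-5p, miR-141-5p and miR-200c-5p did not overlap with each other. The 3p strands of miR-200b, miR-200a, miR-200c and miR-429 fit many pairs and have no library values.

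**Figure D4:**
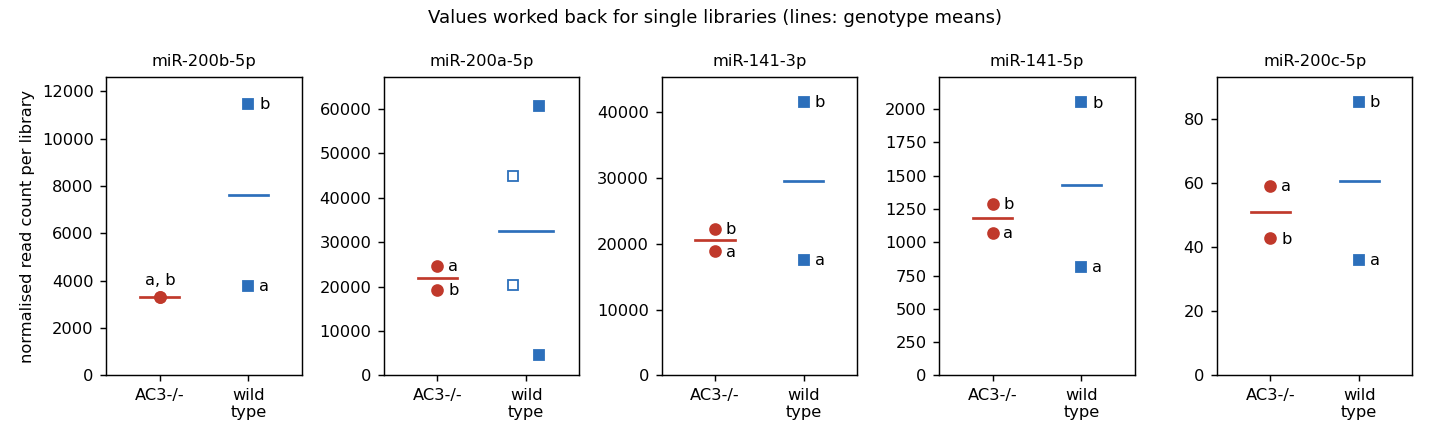
Normalised read count of single libraries for 5 members, AC3-/- (circles) left and wild type (squares) right, with a line at each genotype mean; for miR-200a-5p the open and the filled squares are the 2 possible wild-type pairs. Wild-type library b is the highest point in each panel that has letters for it, for example 11471.9 against 3783.8 in library a for miR-200b-5p.

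limma on all 4 libraries called none of the 4 members it could test and none of the 448 miRNAs (0%), with 16 of the 448 at an unadjusted p under 0.05. The log2 difference of miR-200b-5p was -0.997 (standard error 0.53, limma adjusted p 0.932). That of miR-141-3p was -0.40 (standard error 0.41, limma adjusted p 0.932). miR-141-5p and miR-200c-5p were both at -0.14 with limma's adjusted p of 0.96. Without wild-type library b the 3 chromosome 6 miRNAs had the opposite sign, 0.22, 0.53 and 0.47, and miR-200b-5p was at -0.20, with limma adjusted p between 0.624 and 0.857; none of the 4 was called, against 0.446% of the 448. Without wild-type library a, limma called 2 of the 4, both lower, against 14.5% of 448 miRNAs called in either direction and 7.37% called lower: miR-200b-5p (-1.80, adjusted p 1.79e-05) and miR-141-3p (-1.02, adjusted p 4.02e-05). In that fit the lone wild-type library is assumed to vary like the AC3-/- pair. For a single value, the smallest two-sided p that exact permutation of 4 libraries allows is 0.333.

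Wild-type library b stood apart from the other libraries well beyond the miR-200 family. The count below covers 446 miRNAs with reads in all 4 libraries and a mean of at least 10. Of these, 27 differed at least 2-fold between AC3-/- libraries a and b, and 119 between wild-type libraries a and b. Wild-type library a differed so from AC3-/- libraries a and b in 46 and 56 miRNAs. For wild-type library b the counts against AC3-/- libraries a and b were 97 and 115. The ratio of wild-type library b over a was 3.03 for miR-200b-5p, 2.52 for miR-141-5p and 2.36 for both miR-141-3p and miR-200c-5p. Between 31 and 52 of the 446 miRNAs had a higher ratio than these members.

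Some lists of miRNAs known to mark other cell types also differed between wild-type libraries a and b. All 9 multiciliated-cell miRNAs (miR-34b, miR-34c and miR-449) were in the table, 1 of them, miR-449c-3p, at 0 in wild type. The 8 with library values summed to 13868.7 and 26257.0 in AC3-/-, against 30647.9 in wild-type library a and 5975.7 in b. The 6 leukocyte miRNAs (miR-142a, miR-223, miR-150 and miR-155) summed to 14240.7 and 17815.4 in AC3-/-, against 16824.8 and 5228.4 in wild type. The 3 sensory-cell miRNAs with library values, the 3p strands of miR-182, miR-183 and miR-96, summed to 1373.8 and 659.9 in AC3-/-, against 1317.6 and 6309.0 in wild type. The basal-epithelium miRNAs miR-203-3p and miR-205-5p summed to 18356.8 and 19264.5 in AC3-/-, against 25067.3 and 17469.8 in wild type. The neuronal miRNAs miR-124-3p and miR-128-3p summed to 4606.6 and 5220.3 in AC3-/-, against 3982.5 and 4347.9 in wild type. Of these miR-124-3p, the 1 miRNA with an adjusted p under 0.05, averaged 205.6 in AC3-/- and 29.3 in wild type. Red blood cell miRNAs (miR-451a and both strands of miR-144) summed to 5490.8 and 4265.4 in AC3-/-, against 4938.9 and 2673.3 in wild type. Muscle miRNAs (miR-1a-3p, miR-133a-3p and miR-206-3p) summed to 6537.1 and 4389.2 in AC3-/-, against 6602.9 and 7010.6 in wild type. Of the mesenchyme miRNAs only miR-214-3p had library values, 2551.6 and 3526.3 in AC3-/- against 3886.9 and 3165.6 in wild type. None of the lists' miRNAs was at 0 in both genotypes. The part of cell makeup in the miR-200 values was not tested.

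Some ratios between members varied less between libraries than the levels did. The level of miR-200b-5p over miR-141-5p was 3.08 and 2.57 in AC3-/-, against 4.64 and 5.59 in wild type, so the lower ratio of the chromosome 4 miRNA held with either wild-type library. Over miR-141-3p it was 0.175 and 0.148 in AC3-/-, against 0.215 and 0.276 in wild type. miR-200b-5p gave such separated, lower ratios in AC3-/- to 50.8% of the 445 other miRNAs, so a separation of this kind was common and nothing is read from it about the 2 loci. Without wild-type library b the difference of the locus log2 ratios over the 5 recovered members was -0.44, against -0.695 with all 4 libraries. These members set mostly miR-200b-5p against miR-141-3p, so the difference mixes locus with strand.

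The 5p strands were less far apart between the genotypes than the 3p strands. Summed over the 5 hairpins, the 5p strands came to 26524.6 in AC3-/- and 41670.7 in wild type (log2 ratio -0.65), and the 3p strands to 987364.3 in AC3-/- and 2705154.6 in wild type (-1.45). The 5p share of a hairpin's level was 0.819% in AC3-/- and 0.561% in wild type for Mir200b, and 5.23% in AC3-/- and 3.16% in wild type for Mir200a. For Mir200c it was 0.05004% in AC3-/- and 0.03363% in wild type, and for Mir141 5.42% in AC3-/- and 4.62% in wild type. Those 4 hairpins had the higher 5p share in AC3-/-, by 0.24 to 0.76 on the log2 scale of 5p over 3p. Mir429 had the opposite sign, on 4 reads of its 5p strand. Over 143 hairpins of the table with both strands at a mean of at least 10, the scarcer strand gained relative to the other in 62.9%, with a median of 0.11 and quartiles of -0.30 and 0.34. Of the 85 hairpins whose more abundant strand averaged 1000 or more, 69.4% gained, with a median of 0.15 and quartiles of -0.12 and 0.32. The 4 miR-200 hairpins lay on the more common side, with a median of 0.56, above both upper quartiles, while Mir141 at 0.24 lay below them.

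Mir141 was the 1 family hairpin with library values for both strands. miR-141-5p over miR-141-3p was 0.0568 and 0.0578 in AC3-/-, against 0.0463 and 0.0493 in wild type. Both AC3-/- ratios lay above both wild-type ratios, as the scarcer over the more abundant strand did in 18.3% of 115 hairpins with library values. The wild-type ratios were close to each other although wild-type library b had 2.36 and 2.52 times the normalised reads of library a for these strands.

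**Figure D5:**
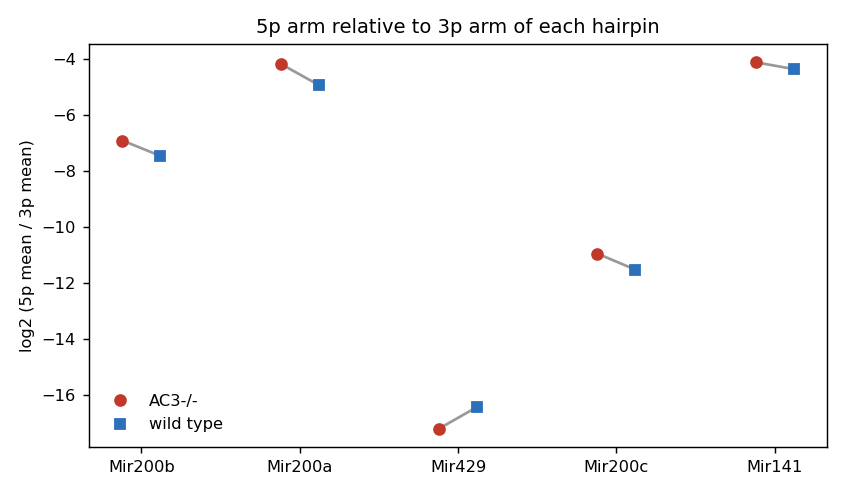
Log2 of the 5p mean over the 3p mean of each hairpin in AC3-/- (circles, left of each pair) and wild type (squares, right). Mir200b, Mir200a, Mir200c and Mir141 lie higher in AC3-/-, and Mir429, whose 5p strand had 4 reads, lies lower.

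The miRNAs whose 4 library values were most like the family's were chosen by the root-mean-square distance of centred log2 values to the sum of the 5 recovered members, among 249 miRNAs that averaged 100 or more. That sum was 23275.3 and 26910.6 in AC3-/-, against 22252.5 and 55195.0 in wild type. Most of it is miR-141-3p. The nearest were miR-708-3p (distance 0.07), miR-330-5p (0.11), miR-15a-5p (0.13), miR-1839-3p (0.15) and miR-664-3p (0.17), where the median of all 249 was 0.59. The AC3-/- libraries held 5963.9 and 6825.9 normalised reads of miR-708-3p, and the wild-type libraries 5286.3 and 12637.8. All 5 of these miRNAs were highest in wild-type library b, as the summed members were, which follows from how they were chosen. The distance rests on 4 libraries.

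A list of 13 miRNAs outside the family, known as epithelial partners or described in various systems as targeting Zeb1 or Zeb2, was set beside it. 10 of the 13 lay below 0 in the authors' deposited table, against 50.5% of all miRNAs, with a median of -0.21, and none passed the adjusted p. 8 of the 13 averaged 1000 or more and all 8 lay below 0, against 65.8% of all miRNAs at that level; 3 of them come from the miR-183 cluster. miR-183-5p and miR-182-5p of that cluster were the 2 with a p under 0.05 before adjustment, by the authors' deposited table. miR-205-5p, an epithelial miRNA known to repress Zeb1 and Zeb2, averaged 7713.7 in AC3-/- and 7968.7 in wild type. Its AC3-/- libraries held 7167.8 and 8259.6 normalised reads and its wild-type libraries 11194.2 and 4743.1, so it was lower in wild-type library b where the miR-200 members were higher. For miR-203-3p, of stratified epithelium, the AC3-/- values were 11189.0 and 11004.9 and the wild-type values 13873.0 and 12726.7. For miR-138-5p, chosen after its values were seen, the AC3-/- values were 257.9 and 187.5. Its wild-type values were 177.5 and 709.8, high in library b as the miR-200 members were. In wild-type libraries a and b miR-153-3p stood at 26.56 and 85.37, the same direction. miR-150-5p, at 1107.2 and 473.6, and miR-215-5p, at 109.4 and 40.93, were lower in library b. miR-101a-3p averaged 76449.9 in AC3-/- and 107747.8 in wild type.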

How the data were processed

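Small RNA of the main olfactory epithelium was compared between 2 AC3-/- and 2 wild type libraries, grouped by their titles. Per the labels' protocols, adaptors were ligated to small RNAs from Trizol-extracted RNA, followed by PCR and a gel cut by length, with no molecular identifiers described. Bowtie, DESeq 1.8.3 and GRCm38 are named, per the submitters' processing notes. How reads were counted and how many mismatches were allowed is not given in the sources used here. As abundance the authors deposited a signal, the mean of normalised reads for each genotype, by the column names and the values. The authors also deposited a log2 fold change, which for the members is closer to 0 than the log2 ratio of the means, and a p-value with its adjusted p-value; the test behind them is not stated.

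The members, lists and tests were chosen with earlier results of these data known. From the means, sums, shares and log2 ratios were computed (Python 3.11.15, pandas 2.3.3). Whole reads per library were worked back where 1 pair of whole numbers fitted the mean, 96.3% of 1167 rows for AC3-/- and 96.7% for wild type, and this was checked on simulated tables. The size factors found were 1.1479 (a) and 1.0986 (b) for AC3-/-, and 0.9411 (a) and 0.8551 (b) for wild type. limma 3.58.1 (R 4.3.3) with an intensity trend was run on log2(normalised value + 1) of 448 miRNAs with a mean of at least 10, adjusted by Benjamini-Hochberg; adding 1 understates changes of low miRNAs. No interval can be given for means that could not be split. Named were all 10 members, the 5 nearest library profiles, miRNAs sharing a 3p seed, the neighbours in rank of miR-200b-3p and up to 2 most abundant miRNAs of each list; other miRNAs with values, such as miR-101a-3p, miR-138-5p and miR-214-3p, were chosen after their values were seen. Alternatives were other scalings, added constants of 1 and 10, other summaries, other thresholds and leaving out each library.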

Additional observations from a re-analysis of the deposited data

How the results depend on the processing

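No paired analysis was possible because the worked-back libraries carry no replicate number. The 3p strands of miR-200b, miR-200a, miR-200c and miR-429, most of the family's reads, have no library values, so no setting shows which library carries their difference. The family's log2 ratio of -1.44 was -0.54 as the median of the deposited log2 fold changes and -0.63 over the 5 recovered members. Leaving out 1 library gave -1.14 to 0.17 over these 5, with 0.17 without wild-type library b. With miR-200a-5p added (chosen after seeing the data) the range was -1.30 to 0.81, with 0.81 or 0.15 without library b for its 2 possible pairs. The number of members with an adjusted p under 0.05, 0 by the authors' p-values and in limma, was 2 at an unadjusted p under 0.05, the threshold of the authors' own mark; leaving out a library in limma gave 0 to 2, with 2 without wild-type library a.

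The locus difference of -0.74 was -0.39 with 5p strands only and -0.50 without miR-200b-3p (chosen after seeing the data). Leaving out 1 library gave -0.81 to -0.44 over the recovered members, which set mostly miR-200b-5p against miR-141-3p and so mix locus with strand. The strand difference, 0.80 for 5p against 3p sums, was 0.55 as the median over hairpins and with 1 added, 0.61 with 10 added, 0.65 without Mir200b and 0.24 for Mir141 alone, where leaving out 1 library gave 0.22 to 0.31; the direction was the same in each. The seed difference of 0.27 was 0.22 as a difference of medians and -0.33, reversed, without miR-200b-3p (chosen after seeing the data). Scaled to the same total, miR-200c-5p (0.24) and miR-141-5p (0.21) had the opposite sign. In limma without 1 library, miR-200c-5p ranged from -0.75 to 0.47 (0.09 without AC3-/- library b), miR-141-3p from -1.02 to 0.22, miR-141-5p from -0.81 to 0.53 and miR-200b-5p from -1.80 to -0.20.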
